A study of Rattus norvegicus with 12 samples.

Results

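The genes described here are 8 genes that mark or drive the injury response of Schwann cells: the transcription factor genes Jun (ENSRNOG00000026293), Atf3 (ENSRNOG00000003745), Sox2 (ENSRNOG00000012199), Runx2 (ENSRNOG00000020193) and Olig1 (ENSRNOG00000028648), the intermediate filament gene Gfap (ENSRNOG00000002919) and the adhesion molecule genes L1cam (ENSRNOG00000061230) and Ncam1 (ENSRNOG00000031890). They were taken by symbol from the deposited table, which holds 8 of 8 of them among 30562 genes. Poly(A) RNA was counted per gene in 12 rat sciatic nerve stumps. Control stumps made up the first group (Control). The groups CC4:2 and CC4:4 had stumps in conduits with the form of a truncated cone. VP4:2, the last of the 4 groups, was loaded with verteporfin and is taken here as the 4:2 conduit with that load. Each group had 3 stumps. Verteporfin is a porphyrin compound that keeps the mechanosensitive coactivator YAP from acting with its TEAD partners. The study set the conduits against pain arising from the stump, and used the verteporfin group to examine the part of YAP. What the control stumps received, the rats' strain, age and sex, the time between surgery and sampling, the dose of verteporfin and the shape that the numbers 4:2 and 4:4 stand for are not given in the sources used here. Nor is it given whether the 3 stumps of a group were from different animals, so the p-values reflect only how these samples spread, in part perhaps for technical reasons.

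When a peripheral axon is cut, the Schwann cells beyond and around the cut leave the myelinating or Remak state and become repair cells, which clear myelin, secrete trophic factors and form tracks for regrowing axons. c-Jun, the product of Jun, is the best known driver of that conversion, while Sox2 holds Schwann cells in an immature, clustering state and opposes myelination. Mature myelinating Schwann cells hold little L1CAM, NCAM or GFAP, and all of these reappear after denervation. RUNX2 and ATF3 are also made by injured Schwann cells, but RUNX2 is at home in bone and some lymphocytes, and ATF3 is a stress factor of many cells, macrophages and injured neurons among them. A stump is a mixed tissue, so fewer cells of a type and less RNA per cell cannot be told apart in these data.

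Promoter sequence was at hand for 3 of the 8 genes, from RefSeq on the rat build GRCr8, and is shown because Sox2 and Gfap had similar profiles over the stumps while Runx2 ran the other way. Each window runs 5′ to 3′ from 250 bases before to 50 bases after the gene's start. The Sox2 window is chr2:119464881-119465180 on the plus strand, the Gfap window chr10:88361612-88361911 on the minus strand, and the Runx2 window, the first of 2 starts in the table, chr9:23664808-23665107 on the plus strand. Capitals mark matches to any of 5 motifs searched on both strands.
Sox2: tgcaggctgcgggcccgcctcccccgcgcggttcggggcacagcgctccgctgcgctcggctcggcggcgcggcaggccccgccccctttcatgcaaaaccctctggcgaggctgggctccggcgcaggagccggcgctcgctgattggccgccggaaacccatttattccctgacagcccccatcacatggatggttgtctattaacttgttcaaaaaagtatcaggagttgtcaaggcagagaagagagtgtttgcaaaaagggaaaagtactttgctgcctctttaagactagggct
Gfap: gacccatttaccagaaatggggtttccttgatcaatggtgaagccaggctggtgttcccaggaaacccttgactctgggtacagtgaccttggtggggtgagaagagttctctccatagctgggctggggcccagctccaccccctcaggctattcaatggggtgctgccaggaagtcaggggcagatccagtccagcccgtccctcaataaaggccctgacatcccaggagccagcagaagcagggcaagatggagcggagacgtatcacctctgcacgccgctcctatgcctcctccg
Runx2: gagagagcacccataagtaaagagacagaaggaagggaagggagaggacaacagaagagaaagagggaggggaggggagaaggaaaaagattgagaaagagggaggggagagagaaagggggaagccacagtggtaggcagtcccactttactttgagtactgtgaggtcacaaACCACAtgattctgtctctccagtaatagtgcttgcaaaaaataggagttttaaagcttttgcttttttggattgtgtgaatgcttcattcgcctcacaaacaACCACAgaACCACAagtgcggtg
The motifs were AP-1 (TGANTCA, found in 7.33% of 33469 RefSeq promoter windows of this length), CRE (TGACGTCA, 1.83%), TEAD (GGAATG, 14.19%), RUNX (TGTGGT, 17.3%) and SOX (CATTGT, 13.22%). The Runx2 window held 3 matches, all to the RUNX letters on the minus strand, with first bases at -76, 28 and 36 from the start. The Sox2 and Gfap windows and the window at the second Runx2 start, chr9:23742990-23743289 on the plus strand, held no match to these letters. A match is only a run of letters and shows no binding.

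Totals were 13763093 to 18632300 counts per sample. Of the 8 genes, 7 passed the filter on low counts and were tested. Olig1 did not pass it. Levels are TMM-scaled CPM, in which each gene's count is scaled to its library's total after that total is multiplied by the library's TMM factor. Levels are given in the order of replicates 1, 2 and 3, and group levels are means ± SD (n = 3). They are not divided by transcript length, so levels are compared between samples for 1 gene and never between genes. Changes are log2 fold changes ± SE from edgeR's quasi-likelihood test, with p adjusted after Benjamini and Hochberg over 15712 genes. A call means an adjusted p under 0.05. The 6 pairwise comparisons share samples, since each group enters 3 of them. Sequencing used a NovaSeq X Plus for replicates 1 and 2 of every group and a DNBSEQ-T7 for replicate 3, and values within each platform are given beside the calls of the 8 genes.

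Markers of several cell types differed between the groups, and their levels are given here once for the results below. The defining pan-Schwann gene Sox10 read 2.76, 40.1 and 13.7 CPM in the control stumps, 30.2, 12.8 and 15.7 CPM in CC4:4, 112, 133 and 63.6 CPM in VP4:2, and 234, 215 and 109 CPM in CC4:2. The mean log2 CPM of 9 tested pan-Schwann markers ran from 1.68 to 4.57 in Control, from 3.27 to 4.16 in CC4:4, from 5.30 to 5.90 in VP4:2 and from 5.74 to 6.65 in CC4:2. Control replicate 1 had the lowest value of the 12. Macrophage markers had a mean log2 CPM of 7.99 to 8.29 in Control and 6.37 to 6.77 in CC4:2, while VP4:2 (7.67 to 7.95) and CC4:4 (7.43 to 7.96) overlapped each other between these. Perineurial markers, those of the sheath around a fascicle, rose in 5 of 5 tested genes in CC4:2 against Control with a median of 3.24, from a mean log2 CPM of 4.60 to 6.60 in Control to 8.38 to 8.74 in CC4:2, with 5.39 to 6.19 in CC4:4 and 7.50 to 7.80 in VP4:2. Neutrophil markers fell in 7 of 7 with a median of -4.69, from 4.53 to 5.30 in Control to 0.08 to 0.51 in CC4:2, with 4.66 to 5.76 in CC4:4 and 0.31 to 0.85 in VP4:2. The part of these cell types in the results below was not tested.

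**Figure D1:**
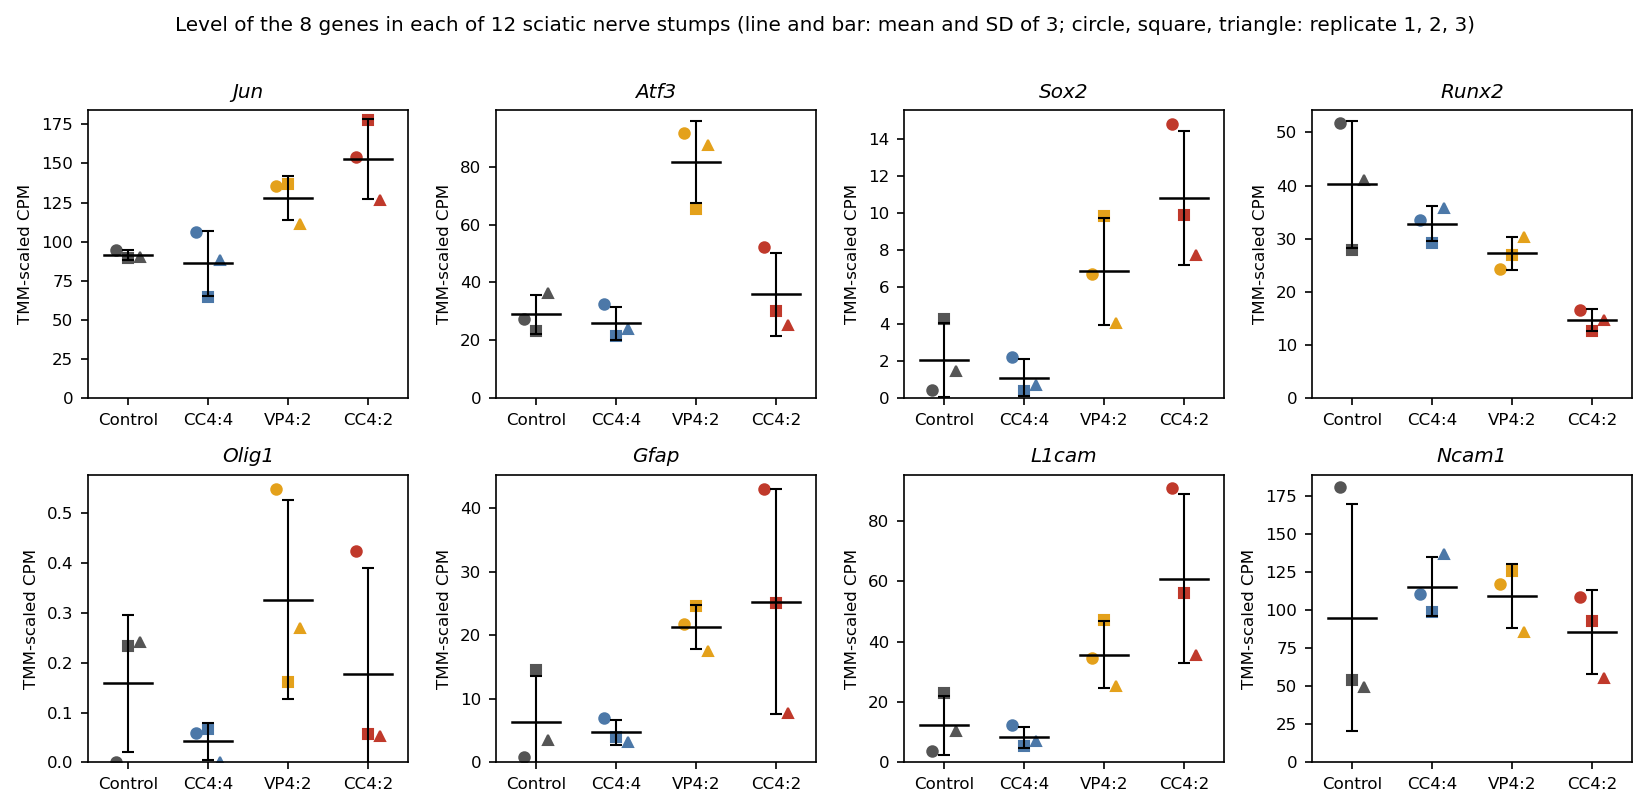
TMM-scaled CPM (vertical axes, each starting at 0) of the 8 genes in each stump, with groups along the horizontal axes, a line at the mean and a bar of 1 SD over 3 replicates. Jun, Sox2, Gfap and L1cam are highest on average in CC4:2, where Runx2 is lowest, and Atf3 stands highest in the 3 VP4:2 stumps.

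The first question was what the CC4:2 conduit did to these genes. Jun, Sox2 and L1cam rose against Control and Runx2 fell, while Atf3, Gfap and Ncam1 were not called. That is 4 of 7 tested genes, where 43.5% of all tested genes were called in this comparison, 20.3% higher and 23.2% lower. The same 4 genes had groups that did not overlap, as did 49.3% of all tested genes.

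Jun read 94.9, 89.3 and 90.3 CPM in Control and 154, 178 and 127 in CC4:2. Every CC4:2 stump lay above every control stump, and the control values were tight. The rise was 0.74 ± 0.19 (adjusted p = 0.0088 by edgeR), a 1.67-fold change. It was called with any of the 6 libraries of these groups left out, between 0.62 and 0.86. On the NovaSeq samples alone it was 0.87 and not called (edgeR adjusted p = 0.0545), and on the DNBSEQ-T7, with 1 sample a group and no test, CC4:2 was 0.49 higher on the log2 scale. CC4:4 stumps read 106, 64.6 and 88.0 CPM and VP4:2 stumps 136, 137 and 111. From lowest to highest mean the order was CC4:4 (86.2 ± 20.7 CPM), Control (91.5 ± 2.96), VP4:2 (128 ± 14.3) and CC4:2 (153 ± 25.5), and no neighbours in it were called apart. VP4:2 stumps all lay above Control without a call (0.48 ± 0.18, adjusted p = 0.0911 by edgeR), and overlapped CC4:2.

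Jun acts in dimers with other AP-1 proteins and is activated by the JNK kinases. Among 15 tested AP-1, ATF and JNK pathway genes, 2 rose and 2 fell in CC4:2 against Control, with a median change of -0.15 against -0.04 over all tested genes. Fosl1, a Fos family partner of c-Jun, rose (0.97 ± 0.25, edgeR adjusted p = 0.00988), as did Map3k12, which encodes the axon injury kinase DLK (0.67 ± 0.17, edgeR adjusted p = 0.0106). Junb, a Jun paralog, fell from 102, 54.9 and 84.3 CPM to 24.1, 34.3 and 22.3 (-1.58 ± 0.27, edgeR adjusted p = 0.00105). Jun and Junb therefore moved in opposite directions between the same stumps. Atf4, a regulator of the stress response, also fell (-0.77 ± 0.17, edgeR adjusted p = 0.00434), a call lost on the NovaSeq samples alone (-0.64, 0.108). Jund (0.54 ± 0.25) and Fos (-0.47 ± 0.52) were not called.

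Sox2 was a low gene, at 0.450, 4.29 and 1.45 CPM in Control and 14.8, 9.92 and 7.73 in CC4:2. The groups did not overlap, and control values spread over a wide range. The rise was 2.41 ± 0.75 (adjusted p = 0.0241 by edgeR). This call was lost without Control replicate 3 (0.0793) or CC4:2 replicate 1 (0.0679), with only these 2 groups in the fit (0.0506), and on the NovaSeq samples alone (0.13, at a change of 2.41), all by edgeR. The DNBSEQ-T7 pair differed by 2.32 in the same direction. VP4:2 stumps held 6.69, 9.83 and 4.06 CPM and CC4:4 stumps 2.23, 0.407 and 0.684. The order of means was CC4:4 (1.11 ± 0.982), Control (2.07 ± 1.99), VP4:2 (6.86 ± 2.89) and CC4:2 (10.8 ± 3.63), in which neighbouring groups overlapped and none was called.

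Genes that hold back myelination formed a list of 10 beside Sox2, of which 9 were tested, 5 rose and 1 fell in CC4:2 against Control, with a median of 0.76. The Notch target Hes1 rose by 1.27 ± 0.18 (edgeR adjusted p = 0.00046), the inhibitor of differentiation gene Id4 by 1.47 ± 0.33 (0.00517), and Dusp15, a phosphatase gene of myelinating glia, by 2.83 ± 0.73 (0.00976). Hes1 was still called on the NovaSeq samples alone (edgeR adjusted p = 0.0244), and Id4 (0.0505) and Dusp15 (0.0793) were not. Id2, the 1 that fell (-0.80 ± 0.26, edgeR adjusted p = 0.0268), was named after its value was seen. Its call was lost without Control replicate 3, CC4:2 replicate 2 or CC4:2 replicate 3 (edgeR adjusted p up to 0.127), at changes between -1.02 and -0.45, and on the NovaSeq samples (-0.46, 0.261). In the same comparison 14 of 14 myelin genes rose, with a median of 3.16, so genes of both lists were higher in the same stumps. The relatives Sox1 and Sox3 of the Sox2 family did not pass the filter, and Sox10, which specifies the Schwann lineage, rose by 3.31 ± 0.77 (edgeR adjusted p = 0.00589), but was not called on the NovaSeq samples alone (0.0621).

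L1cam encodes a homophilic adhesion molecule of axons and of non-myelinating Schwann cells. It read 3.66, 23.0 and 10.3 CPM in Control and 90.9, 56.0 and 35.6 in CC4:2. The lowest CC4:2 stump stood above the highest control stump. The rise of 2.31 ± 0.59 (adjusted p = 0.00962 by edgeR), a 4.97-fold change, was called with any of the 6 libraries left out. It was 2.48 on the NovaSeq samples alone, where it was not called (edgeR adjusted p = 0.0685), and 1.78 on the DNBSEQ-T7. Levels were 34.6, 47.3 and 25.3 CPM in VP4:2 and 12.3, 5.56 and 7.18 in CC4:4. The order of means was CC4:4 (8.35 ± 3.53), Control (12.3 ± 9.81), VP4:2 (35.7 ± 11.05) and CC4:2 (60.8 ± 28.0). VP4:2 did not overlap Control, and was not called against it (1.55 ± 0.58, adjusted p = 0.0855 by edgeR).

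The other genes of the L1 family moved with L1cam. Chl1, Nrcam and Nfasc, whose products link membranes to the cytoskeleton at nodes, growth cones and glial contacts, rose by 1.97 ± 0.47, 1.66 ± 0.39 and 3.44 ± 0.72 in CC4:2 against Control, with edgeR adjusted p of 0.00696, 0.00643 and 0.00354. All 3 kept their call on the NovaSeq samples alone (0.0182, 0.0211 and 0.0415). Nfasc went from 2.02, 27.2 and 15.4 CPM in Control to 228, 159 and 94.1 in CC4:2. None of the 3 was called between VP4:2 and CC4:2.

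Gfap encodes the glial intermediate filament of non-myelinating and repair Schwann cells. Levels were 0.844, 14.6 and 3.55 CPM in Control and 43.0, 25.0 and 7.73 in CC4:2. Control replicate 2 lay above CC4:2 replicate 3, so the groups overlapped. The change of 2.01 ± 0.83 was not called (adjusted p = 0.0703 by edgeR), but became a call without Control replicate 2 (3.56, edgeR adjusted p = 0.00695) or CC4:2 replicate 3 (2.44, 0.0377), and was called by DESeq2 (2.00, adjusted p = 0.0201) and limma-voom (2.68, adjusted p = 0.0409). VP4:2 stumps read 21.8, 24.5 and 17.6 CPM and CC4:4 stumps 6.92, 4.07 and 3.15. The order of means was CC4:4 (4.71 ± 1.97), Control (6.33 ± 7.29), VP4:2 (21.3 ± 3.51) and CC4:2 (25.3 ± 17.7). Vim, the general intermediate filament gene, rose in CC4:2 by 1.40 ± 0.30 (edgeR adjusted p = 0.0038), and Nes, the progenitor filament gene nestin, by 1.64 ± 0.35 (0.00393).

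Runx2 moved against the other called genes. It read 51.8, 27.9 and 40.9 CPM in Control and 16.6, 12.6 and 14.8 in CC4:2, and every CC4:2 stump lay below every control stump. The fall was -1.45 ± 0.21 (adjusted p = 0.000462 by edgeR), a level 2.74-fold lower. Of the 4 calls it alone was also made on the NovaSeq samples (-1.43, edgeR adjusted p = 0.0204), and the DNBSEQ-T7 pair differed by -1.46. VP4:2 stumps held 24.3, 26.9 and 30.4 CPM and CC4:4 stumps 33.5, 29.2 and 35.7. The order of means was CC4:2 (14.7 ± 2.00), VP4:2 (27.2 ± 3.05), CC4:4 (32.8 ± 3.30) and Control (40.2 ± 11.97), and only CC4:2 was called apart from its neighbour.

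The RUNX family has 2 further members. Runx3, best known in T and NK cells and sensory neurons, fell by 2.97 ± 0.27 in CC4:2 against Control (edgeR adjusted p = 4.43e-05), from 37.7, 35.7 and 58.2 CPM to 4.24, 5.25 and 7.31. Runx1 was not called (0.19 ± 0.30), at 13.6, 10.6 and 9.85 CPM against 7.36, 19.2 and 12.3. Markers of T and NK cells fell in 9 of 9 tested genes of that list, with an index of 4.08 to 4.76 in Control and 0.06 to 2.08 in CC4:2, and macrophage markers in 7 of 10. Of 8 tested bone and cartilage markers 0 were called lower and 2 higher, namely Col2a1 and Dlx5. The fitted change was below 0 for 4 of the 8, with a median of -0.07. The osteoblast genes Sp7 and Alpl were not called. Sp7 read 4.16, 0.234 and 0.242 CPM in Control and 0.476, 0.056 and 0 in CC4:2. Control replicate 1 was the highest of the 12 stumps for both Runx2 and Sp7. The part of these cells in the Runx2 values was not tested.

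Ncam1 was uncalled in all 6 comparisons. Control stumps read 181, 54.3 and 49.8 CPM, CC4:2 stumps 109, 92.5 and 55.1, VP4:2 stumps 117, 126 and 85.5, and CC4:4 stumps 111, 98.8 and 137. Control replicate 1 was the highest of the 12 stumps and the other controls were the lowest, so the control group spanned all others. Without that library the change in CC4:2 against Control went from -0.15 to 0.71 (edgeR adjusted p = 0.0524), and that in VP4:2 against Control from 0.20 to 1.07, which was called (0.0179). Ncam1 is also made by regenerating muscle, and the summed level of 8 skeletal muscle markers ran from 3.43 CPM in Control replicate 1 to 9378 CPM in CC4:2 replicate 2, with both high and low stumps in each group. The part of muscle in the Ncam1 values was not tested.

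NCAM is altered by polysialic acid, a long sugar chain that weakens its adhesion and is added by the enzymes of St8sia2 and St8sia4. Where Ncam1 was not called, both enzyme genes were, in opposite directions. St8sia2 rose in CC4:2 from 1.63, 1.17 and 0.404 CPM to 10.3, 6.03 and 8.30 (2.91 ± 0.54, edgeR adjusted p = 0.00186), and St8sia4 fell from 22.0, 29.4 and 29.1 CPM to 7.78, 10.9 and 12.4 (-1.37 ± 0.19, edgeR adjusted p = 0.00035). Ncam2, the paralog of Ncam1 that carries no polysialic acid, rose by 2.84 ± 0.40 (edgeR adjusted p = 0.000392). All 3 calls were also made on the NovaSeq samples alone (0.0171, 0.0125 and 0.0174). In the whole list of family members and modifying enzymes, 7 of 13 tested genes rose and 2 fell, with a median of 1.40.

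**Figure D2:**
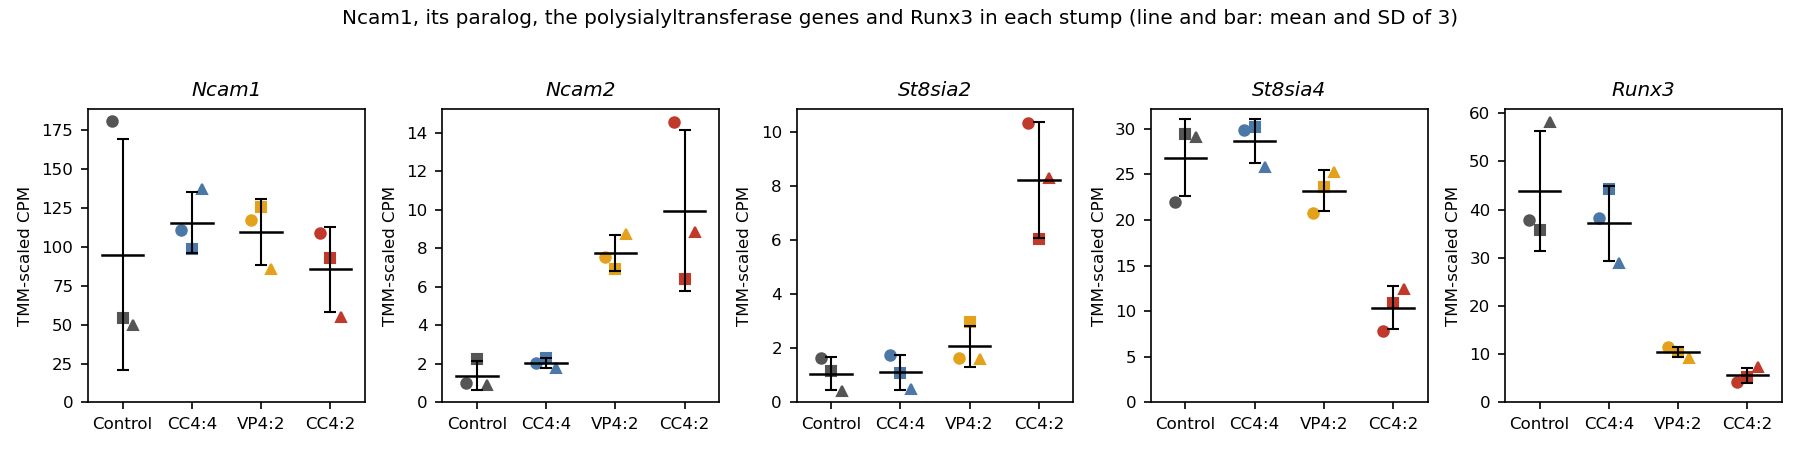
TMM-scaled CPM (vertical axes, starting at 0) of Ncam1, Ncam2, the polysialyltransferase genes St8sia2 and St8sia4, and Runx3 in each stump by group, with the mean and SD of 3. Ncam1 overlaps between groups, while St8sia2 is at 6.03 CPM or more in the 3 CC4:2 stumps and at 2.95 or less in the others, and St8sia4 is lowest in CC4:2.

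Olig1, an oligodendrocyte lineage factor gene that repair Schwann cells switch on in mice, was barely detected. Its rounded counts were 0, 3 and 3 in control stumps, 8, 1 and 1 with CC4:2, 10, 3 and 5 with VP4:2, and 1, 1 and 0 with CC4:4. A count of 0 allows up to 3 counts, 0.169 CPM in Control replicate 1, which covers counting error only. No difference was detectable at this depth, and without the filter the 6 edgeR adjusted p ran from 0.216 to 0.938. Its paralog Olig2 held 1 count in Control replicate 3 and 5 in VP4:2 replicate 1.

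Repair signals, the trophic factors and surface markers of the repair state, were looked at beside the 8 genes. Of 14 tested, 7 rose and 3 fell in CC4:2 against Control, with a median change of 1.11 against -0.04 over all tested genes. Without Control replicate 1, an alternative chosen after seeing the data, 8 rose and 1 fell. Ngfr, the p75 neurotrophin receptor gene, went from 5.005, 23.0 and 8.88 CPM to 109, 119 and 72.2 (3.03 ± 0.60, edgeR adjusted p = 0.00253). The EGF family ligand gene Btc rose by 2.93 ± 0.50 (0.00107) and the growth cone gene Gap43 by 2.08 ± 0.45 (0.0043). Gap43 lost its call on the NovaSeq samples alone (1.76, edgeR adjusted p = 0.0911), while Ngfr (0.0434) and Btc (0.0306) kept theirs. Shh, which is switched on in injured Schwann cells, rose by 2.64 ± 0.97 (edgeR adjusted p = 0.0474), but lost its call with each library of these groups left out in turn except CC4:2 replicate 3, and on the NovaSeq samples alone (0.0598). The 3 that fell, the neurotrophin gene Bdnf, the cytokine gene Clcf1 and the N-cadherin gene Cdh2, were named after their values were seen. Clcf1 was called with any of the 6 libraries left out. Cdh2 (-0.79, edgeR adjusted p = 0.0305) lost its call without Control replicates 1 or 2 or CC4:2 replicates 2 or 3 (up to 0.101), and Bdnf (-3.09, 0.0196) without Control replicate 1 or CC4:2 replicate 2 (up to 0.112), at changes between -4.39 and -1.70. Gdnf and Artn did not pass the filter. Nerve injury-associated genes, a list with many neuronal and macrophage genes, went the other way, with 0 higher and 5 lower of 9 tested and a median of -1.28, among them the lysosomal glycoprotein gene Gpnmb (-2.55 ± 0.24, edgeR adjusted p = 4.95e-05) and the cytokine brake Socs3 (-2.69 ± 0.36, 0.000312).

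**Figure D3:**
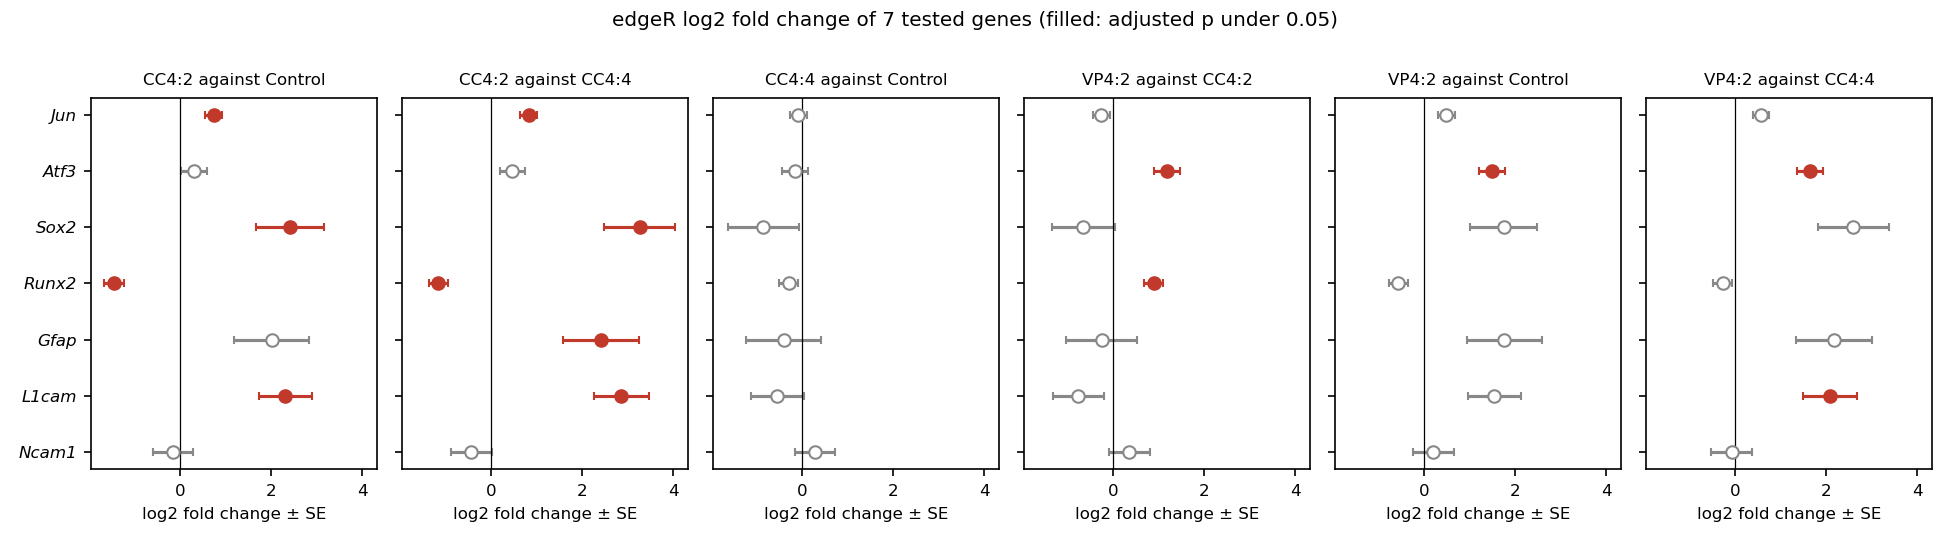
Log2 fold change ± SE (horizontal axes) of the 7 tested genes in each of the 6 comparisons, with filled points at an edgeR adjusted p under 0.05. Jun, Sox2 and L1cam are filled on the right and Runx2 on the left for CC4:2 against both Control and CC4:4, no point is filled for CC4:4 against Control, and Atf3 is filled in the 3 comparisons of VP4:2.

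The second question was whether the CC4:4 conduit did the same. Of the 7 tested genes 0 were called between CC4:4 and Control by edgeR, and 0 had an unadjusted p under 0.05. Over all tested genes 0% were called, and 5.29% had an unadjusted p under 0.05. DESeq2 and limma-voom called 0 of the 7 genes as well, and 10 and 0 of all tested genes. Without Control replicate 1, edgeR called 296 of 15975 genes, and 0 of the 7. In 0 of the 7 were the groups apart, as against 7.42% of all tested genes. Changes ran from -0.85 ± 0.78 for Sox2 to 0.28 ± 0.45 for Ncam1, which does not show that the groups were alike: for Sox2, Gfap and L1cam the SE was 0.58 to 0.83.

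The direct comparison of the conduits, CC4:2 against CC4:4, called 5 of the 7 genes, where 39.2% of all tested genes were called, 18.5% higher and 20.7% lower. Jun rose by 0.83 ± 0.19 (adjusted p = 0.00585), Sox2 by 3.26 ± 0.78 (0.00796), L1cam by 2.86 ± 0.60 (0.00427) and Gfap by 2.42 ± 0.84 (0.0413), and Runx2 fell by 1.16 ± 0.21 (0.00189), all by edgeR. All 5 had groups that did not overlap, as did 53.1% of all tested genes. On the NovaSeq samples alone Jun (0.94), L1cam (3.01) and Runx2 (-1.12) were still called, with edgeR adjusted p of 0.0435, 0.0426 and 0.0406, but Sox2 (3.18, 0.073) and Gfap (2.60, 0.113) were not. The DNBSEQ-T7 pair differed by 0.52, 2.29, -1.27, 3.29 and 1.26 for Jun, L1cam, Runx2, Sox2 and Gfap. The Gfap call was lost when any library but CC4:2 replicate 3 was left out (up to 0.14), and was lost with replicate number as a block (0.0535) and with limma-voom (0.07).

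Verteporfin was then set against the unloaded CC4:2 conduit. Atf3 and Runx2 rose and the other 5 tested genes were not called. That is 2 of 7, where 6.23% of all tested genes were called, 5.23% higher and 0.999% lower. The same 2 genes had groups that did not overlap, as did 32.2% of all tested genes.

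Atf3, a stress-induced ATF family gene, read 52.3, 30.0 and 25.3 CPM in CC4:2 and 91.7, 65.4 and 87.5 in VP4:2. All 3 VP4:2 stumps were above all 3 CC4:2 stumps. The rise was 1.18 ± 0.28 (adjusted p = 0.0339 by edgeR), a 2.27-fold change. With a library left out it was between 0.99 and 1.56 and was called only without CC4:2 replicate 1 (0.00933) or VP4:2 replicate 2 (0.0412). It was 0.94 on the NovaSeq samples (edgeR adjusted p = 0.294) and 1.78 on the DNBSEQ-T7. Control stumps held 27.4, 23.2 and 36.3 CPM and CC4:4 stumps 32.4, 21.6 and 23.7, so the means ran CC4:4 (25.9 ± 5.71), Control (29.0 ± 6.71), CC4:2 (35.9 ± 14.4) and VP4:2 (81.5 ± 14.2).

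Atf3 was above each of the other groups in VP4:2. Against Control it rose by 1.49 ± 0.29 (adjusted p = 0.00815 by edgeR), called with any of the 6 libraries left out, and against CC4:4 by 1.65 ± 0.29 (0.011), called without any but CC4:4 replicate 2 (0.0545). On the NovaSeq samples alone the changes were 1.66 (edgeR adjusted p = 0.0939) and 1.52 (0.093), neither called, and the DNBSEQ-T7 pairs differed by 1.27 and 1.88. VP4:2 against Control called 1 of the 7 genes, Atf3, where 18.9% of all tested genes were called, 9.3% higher and 9.57% lower, and 4 genes had groups apart (Jun, Atf3, L1cam and Gfap), as did 38.6% of all tested genes. VP4:2 against CC4:4 called Atf3 and L1cam (2.09 ± 0.59, edgeR adjusted p = 0.0448), where 11.2% of all tested genes were called, 5.7% higher and 5.51% lower, and 5 genes had groups apart (Jun, Sox2, Atf3, L1cam and Gfap), as did 43.5% of all tested genes. The L1cam call there was lost whichever of the 6 libraries was left out (0.0615 to 0.173) and with replicate number as a block (0.0657). For L1cam the NovaSeq samples alone gave 2.17, which was not called (edgeR adjusted p = 0.204), and the DNBSEQ-T7 pair differed by 1.80.

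The Runx2 rise in VP4:2 against CC4:2 was 0.89 ± 0.21 (adjusted p = 0.0309 by edgeR). Its call was lost whichever of the 6 libraries was left out (0.0523 to 0.127) and on the NovaSeq samples (0.81, 0.323), and the DNBSEQ-T7 pair differed by 1.03. The VP4:2 mean was below that of Control, without a call (-0.56 ± 0.21, adjusted p = 0.0799 by edgeR). Runx3 was not called between VP4:2 and CC4:2 (0.89 ± 0.25, edgeR adjusted p = 0.066), and was lower in VP4:2 than in Control, at 11.4, 10.5 and 9.30 CPM (-2.07 ± 0.25, edgeR adjusted p = 0.0018).

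Jun (-0.26 ± 0.18), Sox2 (-0.66 ± 0.69), L1cam (-0.77 ± 0.56) and Gfap (-0.25 ± 0.78) had lower fitted levels in VP4:2 than in CC4:2 and Ncam1 (0.36 ± 0.45) a higher one, all without a call. Of the repair signals 0 of 14 and of the myelin genes 0 of 14 were called between VP4:2 and CC4:2. In nerve injury-associated genes 3 of 9 rose: Gpnmb (3.04 ± 0.24, edgeR adjusted p = 0.000119), the galectin gene Lgals3 (1.92 ± 0.27, 0.00207) and the neuronal growth gene Stmn2 (1.88 ± 0.44, 0.0309). The Stmn2 call was lost when any library but CC4:2 replicate 1 was left out (up to 0.12), and on the NovaSeq samples alone Stmn2 (edgeR adjusted p = 0.256) and Lgals3 (0.11) were not called, while Gpnmb was (0.0267). In the polysialyltransferases St8sia4 rose (1.16 ± 0.19, edgeR adjusted p = 0.00402), a call made with any of the 6 libraries left out but not on the NovaSeq samples alone (0.0783). St8sia2 fell (-1.98 ± 0.51, edgeR adjusted p = 0.0454), to 1.64, 2.95 and 1.62 CPM, a call lost with each library left out. Macrophage markers rose in 6 of 10 genes of that list, such as Cd68 (2.35 ± 0.19, edgeR adjusted p = 0.000134) and Itgam (2.33 ± 0.20, 0.000199). Their part in the Atf3, Gpnmb and Lgals3 values was not tested.

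**Figure D4:**
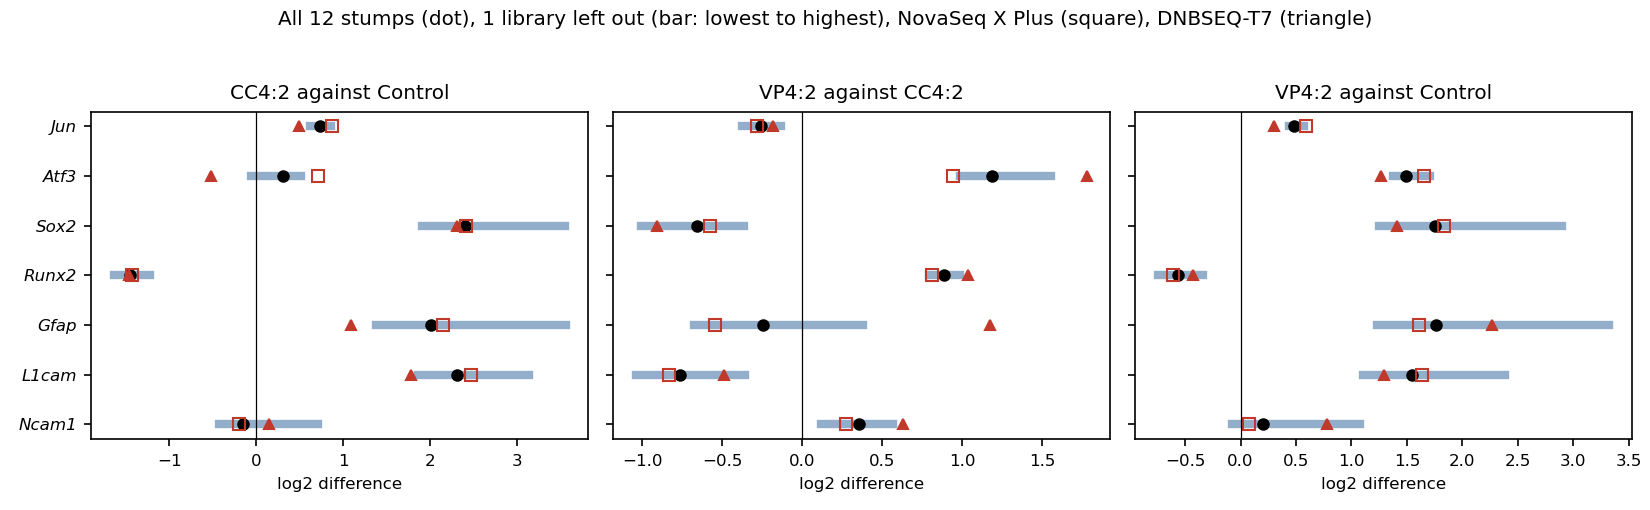
Log2 difference (horizontal axes) of the 7 tested genes in 3 comparisons: all 12 stumps (dot), lowest to highest with 1 library left out (bar), NovaSeq X Plus samples (square) and the DNBSEQ-T7 pair (triangle). Only Atf3 and Ncam1 have values on both sides of 0 for CC4:2 against Control, only Gfap for VP4:2 against CC4:2, and only Ncam1 for VP4:2 against Control.

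Over the 12 stumps Sox2, L1cam and Gfap had the most similar profiles of the 7 tested genes. Log2 CPM of Sox2 and L1cam had a Pearson r of 0.99 (Spearman's rho 0.99, n = 12), L1cam and Gfap 0.94 (0.94), and Sox2 and Gfap 0.90 (0.91). Each also followed the pan-Schwann index, at r of 0.95 for Sox2, 0.98 for L1cam and 0.95 for Gfap. On deviations from group means, pooled over the 4 groups, the r with the index was 0.93, 0.97 and 0.94. The index spread most widely in Control, and r was not taken within each group alone. Jun had an r of 0.87 with Sox2, 0.85 with L1cam and 0.71 with Gfap, and of 0.81 with the index. On deviations from group means these were 0.49, 0.39, 0.26 and 0.28. Runx2 ran against the index (-0.85) and against L1cam (-0.82), and Atf3 (0.52) and Ncam1 (-0.23) had weaker relations. These are descriptions, since the points are 12 libraries in 4 groups that share library size scaling, and leaving out the 2 stumps farthest from the median moved r to 0.97, 0.98, 0.89 and 0.83 for the index with Sox2, L1cam, Gfap and Jun when ordered by the gene.

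Each gene was also set relative to the pan-Schwann markers, as its log2 CPM minus their mean log2 CPM in the same stump. L1cam lay between -0.76 and 0.24 in all 12 stumps. Sox2 had group means of -2.60 in Control, -2.82 in CC4:2, -2.95 in VP4:2 and -3.64 in CC4:4. Jun, which rose in CC4:2 per library, was lower there relative to Schwann markers, at 0.62, 1.19 and 1.25 against 4.89, 1.91 and 2.96 in Control and 2.57, 2.75 and 2.97 in CC4:4. Runx2 had group means of 2.03 in Control, 1.40 in CC4:4, -0.90 in VP4:2 and -2.35 in CC4:2. Atf3 had group means of 1.58 in Control, 1.04 in CC4:4, 0.67 in VP4:2 and -1.13 in CC4:2, and every CC4:2 stump lay below every control stump. Ncam1 was at 0.05 to 0.25 in CC4:2 and 1.07 to 1.12 in VP4:2, and Control replicate 1 stood apart at 5.82. The choice of markers moved these values: relative to Sox10 alone, CC4:2 minus Control was -1.18 for Sox2, -1.37 for L1cam and -1.47 for Gfap, against -0.23, -0.41 and -0.51 with the 9 markers, and -3.19 against -2.24 for Jun. No test was made on these relative values, which take every transcript of a gene as if it came from Schwann cells.

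**Figure D5:**
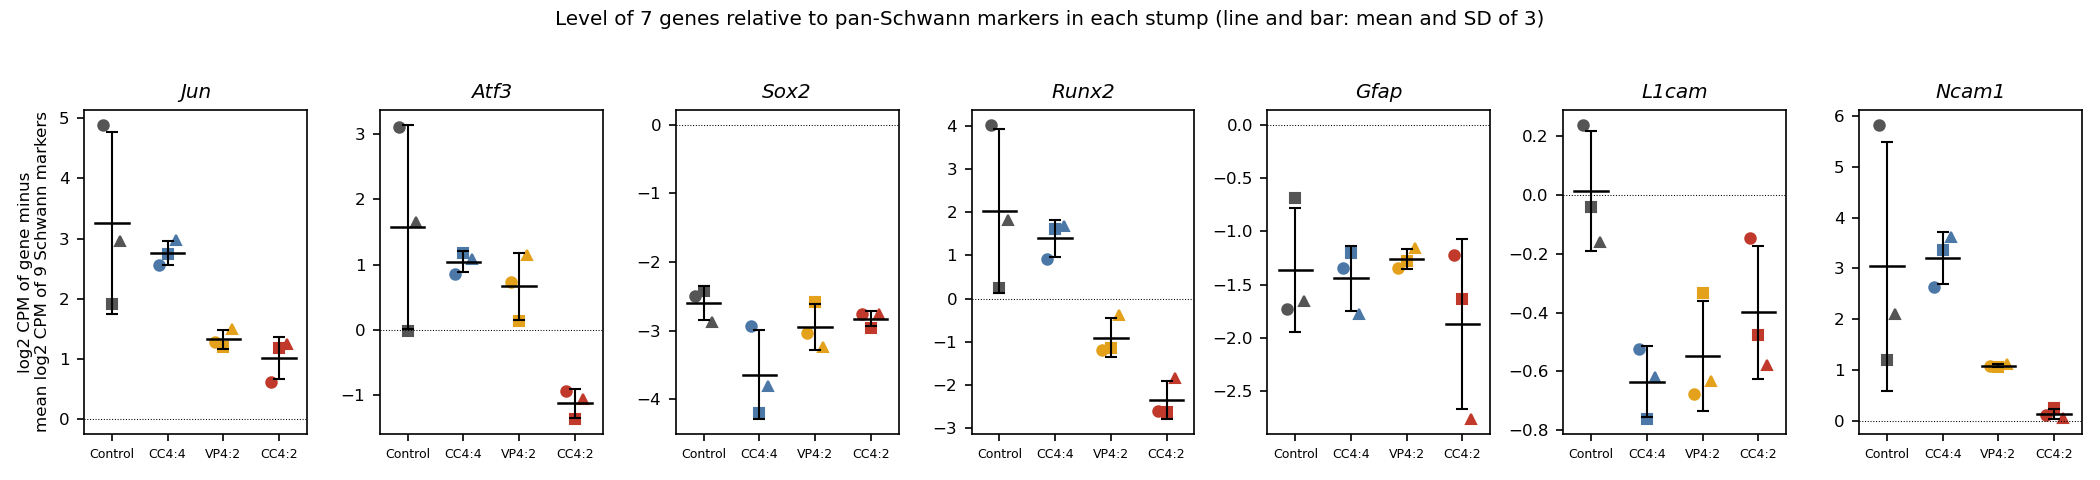
Log2 CPM of each tested gene minus the mean log2 CPM of 9 pan-Schwann markers in the same stump (vertical axes, log2 scale), by group, with the mean and SD of 3. L1cam stays between -0.76 and 0.24 in the 12 stumps. Every gene has a lower mean in CC4:2 than in Control, and these groups do not overlap for Jun, Atf3, Runx2 and Ncam1.

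Among 13010 eligible genes, those of most similar profile were named by the highest Pearson r of log2 CPM over the 12 stumps. For Sox2 they were Tmem8b (0.99), Gal3st1, a sulfatide synthesis gene (0.98), and the neuregulin receptor gene Erbb3 (0.98), which is among the pan-Schwann markers. For L1cam they were Erbb3 (0.99), the kinase gene Brsk2 (0.99) and the ATP receptor gene P2rx7 (0.99), and for Gfap Diras2 (0.98), Rab9b (0.97) and the GABA transporter gene Slc6a11 (0.97). Jun was most like Maml3, a Notch coactivator gene (0.97), Crocc (0.97) and Rita1 (0.97). Runx2 was most like the cytokine gene Il10 (0.97), the lymphoid receptor gene Il7r (0.97) and Rgs2 (0.97). Atf3 was most like Rassf4 (0.95), Abcb4 (0.94) and Gpr137b (0.93), and Ncam1 like Aplp1, Ybx1 and Gpx4 (0.92 each).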

How the data were processed

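The authors deposited expected counts for each gene, so values can be fractions. Per the submitters' processing notes the tools were HISAT2, StringTie, RSEM and DESeq2. Their roles and versions, the genome build and the annotation are not given in the sources used here. Per the labels' protocols, libraries were stranded and made from poly(A) RNA. The 12 deposited files were identical, so 1 was read. Between 9.44% and 11.12% of values in a sample were not whole, and all were rounded to the nearest whole number. Of 30562 genes 4367 had no symbol.

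Counts were scaled with TMM, filtered with filterByExpr and tested with edgeR 4.0.16 (R 4.3.3, limma 3.58.1) in 1 fit of 12 samples, with 4 group terms and 8 degrees of freedom left over. The SE was taken as the absolute log2 fold change over the root of F. Log2 CPM used a prior count of 2. The test was checked on simulated counts drawn without platform differences or outlying libraries, so that check does not cover these. Alternatives were RLE scaling, no filter, DESeq2 1.42.0, limma-voom, replicate number as a block, platform as a covariate or NovaSeq samples alone, the 2 groups alone, and each library left out. Replicates of a group differed by more than sampling noise, so none were merged.

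Same-numbered samples deviated together from their group means in VP4:2 and CC4:2, with correlations of 0.12, 0.28 and 0.43 over genes. VP4:2 replicate 1 had a higher correlation with a CC4:2 stump of another number (0.18). No label says that a number marks a shared animal or day there. Replicate 3 of each group was the DNBSEQ-T7 sample, so its number and its platform cannot be told apart. In VP4:2 against CC4:4 the correlations of same-numbered samples were 0.03, 0.13 and 0.21. In each of the remaining comparisons some of these correlations were negative.

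The 8 genes and the gene lists were chosen with earlier results of these data known. From each list at most 4 genes of smallest p per comparison were named, with 20 partner genes that could always be named, and the 3 genes most similar to each of the 8. Genes named outside this rule are marked where they appear.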

Additional observations from a re-analysis of the deposited data

How the results depend on the processing

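Counts of called genes among the 7 tested moved by more than 1.5 times in these cases. On the NovaSeq samples alone, which drop the third stump of each group, 1 gene was called in CC4:2 against Control (Runx2), 3 in CC4:2 against CC4:4, and 0 in VP4:2 against CC4:2, against Control and against CC4:4. With only the 2 groups in the fit 1 was called in VP4:2 against CC4:2 and 4 in VP4:2 against CC4:4. DESeq2 called 3 in VP4:2 against Control and 5 in VP4:2 against CC4:4, and limma-voom 2 in VP4:2 against Control. With each library left out in turn the counts ran from 0 to 1 in VP4:2 against CC4:2, from 1 to 5 in VP4:2 against Control, with 5 without Control replicate 2 and 2 without Control replicate 1, and from 0 to 3 in VP4:2 against CC4:4, with 0 without CC4:4 replicate 2. With replicate number as a block, 1 gene was called in VP4:2 against CC4:4, and Gfap lost its call in CC4:2 against CC4:4. The block changed no other call of the 7 genes, and kept both calls in VP4:2 against CC4:2. In CC4:2 against Control each library left out gave between 3 and 5 calls, and in CC4:4 against Control all alternatives gave 0.

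Of 588 alternative values for single genes 511 kept their direction and side of the threshold, 39 lost a call, 19 gained a call and 19 changed sign, none of them (0) for a called gene. In CC4:2 against Control these were Atf3 at -0.065 without CC4:2 replicate 1 (range with 1 library left out -0.065 to 0.52), and Ncam1 at 0.054 with limma-voom, 0.71 without Control replicate 1 and 0.082 without CC4:2 replicate 3 (range -0.43 to 0.71). In CC4:4 against Control they were Jun at 0.10 without CC4:4 replicate 2 (range -0.25 to 0.10), Sox2 at 0.30 (range -1.88 to 0.30), L1cam at 0.30 (range -0.98 to 0.30) and Gfap at 1.16 (range -0.93 to 1.16) without Control replicate 2, Gfap at 0.54 with limma-voom, Atf3 at 0.062 without Control replicate 3 (range -0.34 to 0.062), and Atf3 at 0.13 and Ncam1 at -0.12 on the NovaSeq samples. In VP4:2 against CC4:2 Gfap was at 0.063 with limma-voom and 0.38 without CC4:2 replicate 1 (range -0.68 to 0.38). Ncam1 was at -0.045 and -0.073 in VP4:2 against Control without Control replicates 2 and 3 (range -0.073 to 1.07). In VP4:2 against CC4:4 it was at 0.20 on the NovaSeq samples, 0.073 without VP4:2 replicate 3 and 0.048 without CC4:4 replicate 3 (range -0.19 to 0.073). The cause of these shifts was not tested. Depth limits Olig1 most, with 0 to 10 counts a library.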

Other observations

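The neurofilament genes Nefl and Nefm, 2 of 10 listed neuronal and axonal markers, were uneven between stumps of 1 group. Nefl read 42.6, 0.451 and 9.45 CPM in CC4:2 and 0.219, 0.215 and 0.162 CPM in VP4:2, and 0.506, 2.65 and 2.67 in Control and 2.64, 1.42 and 0.889 in CC4:4. Nefm read 55.5, 0.790 and 10.7 CPM in CC4:2 and 0.548, 0.859 and 0.649 in VP4:2. Other markers of the list did not share this pattern in CC4:2, where Nefh read 0.265, 1.64 and 1.04 CPM and Prph 3.9, 4.1 and 3.2. Nefl and Nefm were called lower in VP4:2 than in CC4:2 (edgeR adjusted p = 0.0223 and 0.0499). Of the 6 tested genes of the list 4 were not called, among them Nefh (-2.69, edgeR adjusted p = 0.101), Prph (-0.07, 0.944) and Calca (1.16, 0.346). The fitted change was below 0 for 5 of the 6. Nefl lost its call without CC4:2 replicate 1 or any VP4:2 library (edgeR adjusted p up to 0.107), and Nefm when any library but CC4:2 replicate 2 was left out (up to 0.182). On the NovaSeq samples alone neither was called (0.231 and 0.294).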
